A study of Rattus norvegicus with 4 samples.

Results

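The genes of glycolysis, lactate handling and pyruvate entry into mitochondria were described in neonatal rat cardiomyocytes transfected with a synthetic microRNA mimic. The mimics were those of miR-106b, of miR-93, of miR-25 and, as control, of the worm microRNA cel-miR-67. The genes were chosen by symbol, as a list of 36 names of transporters, enzymes and regulatory kinases. Of these names, 35 were found, and they correspond to 37 of the 15731 genes with deposited values, because Pkm and Pfkfb4 are each listed under 2 Ensembl identifiers. Pdha1 was not matched by symbol and was not analysed here. The cells were ventricular cardiomyocytes from wild-type Wistar rats at postnatal day 1, although one protocol field of the labels gives day 0, and the protocols given are the same for all 4 cultures apart from the mimic. The mimics carry human names, hsa-miR-25-3p for miR-25 and the 5p arms hsa-miR-106b-5p and hsa-miR-93-5p for the others. The dose is 25 nM in one field of the labels and 25 mM in another. RNA was harvested 72 h after transfection and sequenced with 1 library for each mimic, so no difference given here has a replicate check, and the number of hearts behind each culture is not given in the sources used here.

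Glycolysis converts glucose to pyruvate, which is either reduced to lactate and exported or carried into mitochondria and oxidised by the pyruvate dehydrogenase complex. Several steps are served by more than one gene, and in heart and skeletal muscle the forms used early in life give way during maturation to forms typical of adult muscle. The fetal heart relies largely on glucose and lactate, and the adult heart mainly on fatty acids. Fetal or widely expressed forms are here Slc2a1, Hk1, Pfkl, Pfkp, Pgam1, Eno1 and Ldha. Their muscle or heart counterparts are Slc2a4, Hk2, Pfkm, Pgam2, Eno3 and Ldhb. Aldoa, the muscle aldolase, was set against Aldoc, the brain-type form, so that pair does not compare a fetal with a muscle form.

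The 3 microRNAs lie next to each other in the genome, and their mature rat forms are shown because the seed, the stretch from base 2 to base 8 that pairs with target mRNAs, groups them. Sequences are those of RefSeq on build GRCr8, 5′ to 3′, with the seed in capitals. They come from the minus strand at chr12:22157103-22157123 for miR-106b, chr12:22156894-22156916 for miR-93 and chr12:22156652-22156673 for miR-25.
rno-miR-106b-5p: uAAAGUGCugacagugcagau
rno-miR-93-5p: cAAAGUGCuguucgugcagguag
rno-miR-25-3p: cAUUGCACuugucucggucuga
Thus miR-106b and miR-93 share the seed AAAGUGC, and miR-25 has the seed AUUGCAC.

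Levels are RPKM, reads per kilobase of gene scaled to library size, and were compared between genes only on this scale. The reads recovered on all genes with deposited values numbered 15175185 for cel-miR-67, 18797234 for miR-106b, 16520057 for miR-93 and 16460108 for miR-25. These totals are above the reads per sample that the study's methods give. A gene was called upregulated or downregulated when its RPKM ratio over cel-miR-67 passed 1.3-fold and its RPKM was above 1.0 in both libraries. Intervals in parentheses after log2 ratios are 95% exact intervals from the recovered reads, and cover counting error only and compare 2 libraries, not 2 conditions. All 12 cardiomyocyte markers were found, with a summed RPKM of 17565 in the control, 16770.1 after miR-106b, 14252 after miR-93 and 9048 after miR-25, and all 12 were downregulated with miR-25, where Tnni3, a cardiac troponin, had a log2 ratio of -4.47. Of the other cell types, fibroblast markers summed to 886, 704, 803 and 369 RPKM in the same order, and smooth muscle markers to 752, 692, 592 and 2059. The summed RPKM was 4.04 to 5.32 for endothelial, 4.82 to 12.6 for macrophage and 5.57 to 10.8 for red blood cell markers. Of the endothelial markers 6 of 7 were found, and of the red blood cell markers 4 of 5. No marker that was found was at 0 in any library. In such bulk cultures fewer cells of a type and less RNA per cell cannot be told apart, and the part of these shifts in the results below was not tested.

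With miR-106b and miR-93 the muscle forms Pgam2 and Eno3, the glucose transporter Slc2a1, the lactate exporter Slc16a3 and the kinases Hk2 and Pdk3 were upregulated, while Pfkp and the pyruvate carrier subunit Mpc1 were downregulated. With miR-25 most of the genes that passed the cutoff were downregulated, led by Pgam1, Slc16a1, Aldoc and Mpc1, with Eno2 as the largest rise. Of the 37 genes, 35 were above the RPKM cutoff in every comparison with the control. With miR-106b 9 of them were upregulated and 4 downregulated, which is 37.1%, where 24.6% of all 11296 genes above the cutoff were called, 11.9% upregulated and 12.7% downregulated. For miR-93 the counts were 10 and 4, or 40.0%, against 30.8% of 11280 genes, 15.1% upregulated and 15.6% downregulated. After miR-25 they were 5 and 16, or 60.0%, against 42.0% of 11198 genes, 19.3% upregulated and 22.6% downregulated. In that library all 12 cardiomyocyte markers and 7 of 9 fibroblast markers above the cutoff were also downregulated, and 4 of 5 smooth muscle markers upregulated. The median log2 ratio of the 35 genes was 0.0020 after miR-106b, -0.074 after miR-93 and -0.23 after miR-25, where the median of all genes was -0.0033, -0.0018 and -0.012. The summed RPKM of the 37 genes was 4943 in the control, 4946 after miR-106b, 4697 after miR-93 and 3945 after miR-25.

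**Figure D1:**
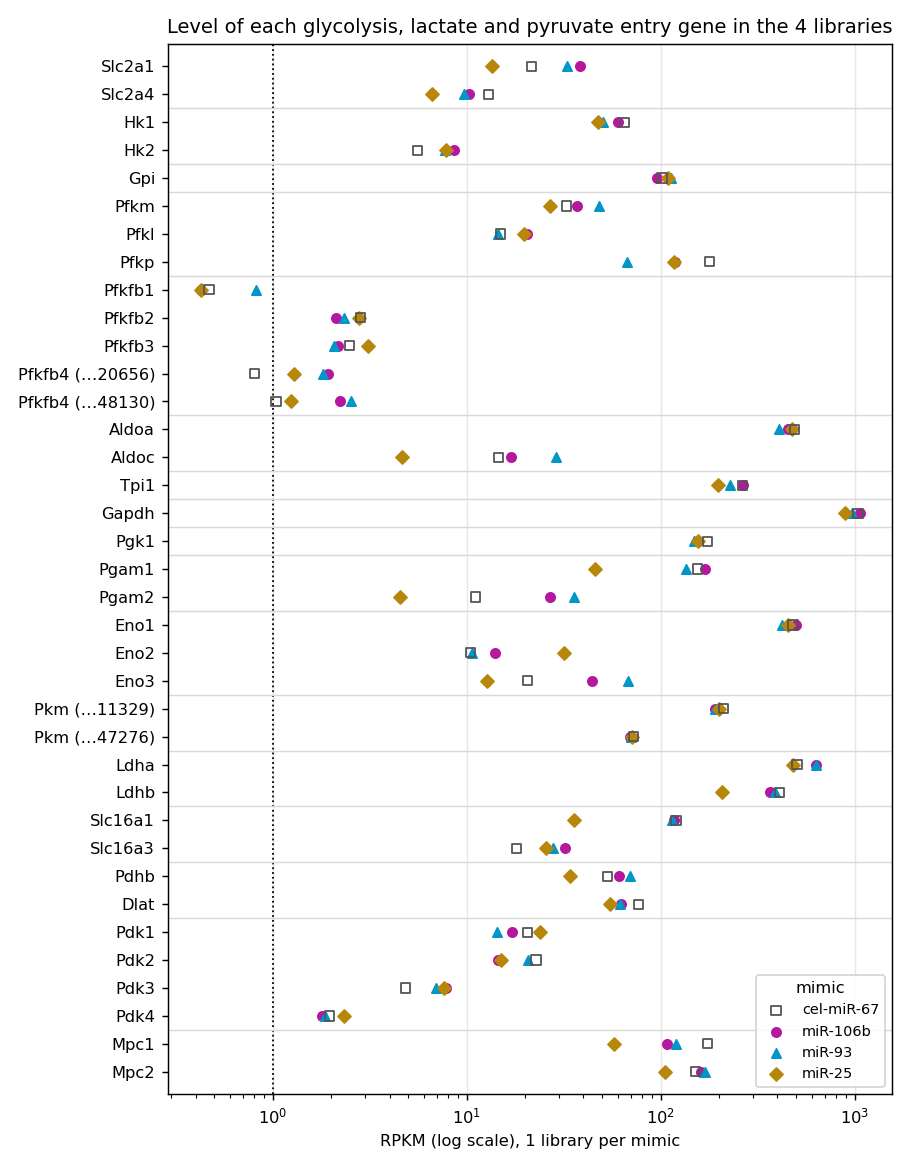
RPKM on a log axis of the 37 glycolysis, lactate and pyruvate entry genes, grouped by step, in the 4 libraries, with the RPKM cutoff of 1.0 dotted. Gapdh had the highest control level at 1042 RPKM and Pfkfb1 the lowest at 0.469, and 9 genes were above 100 RPKM in all 4 libraries.

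**Figure D2:**
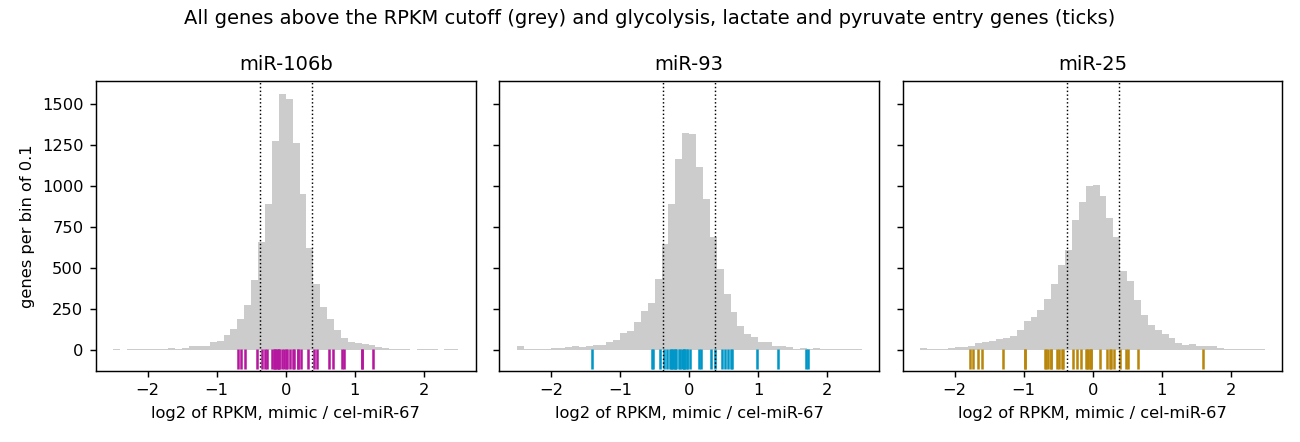
Histogram of log2 RPKM ratios over cel-miR-67 for all genes above the cutoff, in grey, with the 35 glycolysis, lactate and pyruvate entry genes as ticks and the 1.3-fold cutoff dotted. Genes beyond the axis are drawn in the end bins, and the ticks lie around a median of 0.0020, -0.074 and -0.23 from left to right.

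Hk2, Slc16a3 and Pdk3 were upregulated with all 3 mimics, and Pfkp and Mpc1 were downregulated with all 3. The 3 ratios of a gene are all taken over the same single cel-miR-67 library, so their agreement is not that of 3 independent comparisons. Another 10 of the 35 genes stayed within 1.3-fold with every mimic, with log2 ratios between -0.27 and 0.33. They include abundant enzymes of the pathway, namely Gapdh, Aldoa, Eno1, Pgk1, Ldha and both Pkm entries, as well as Gpi, Pfkfb3 and Pdk4. In all, 25 genes were called with at least 1 mimic, some of them in opposite directions. The matching shares over all genes, for calls with all 3 mimics, at least 1 or none, were not computed. These counts are therefore a description of the listed genes only.

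**Figure D3:**
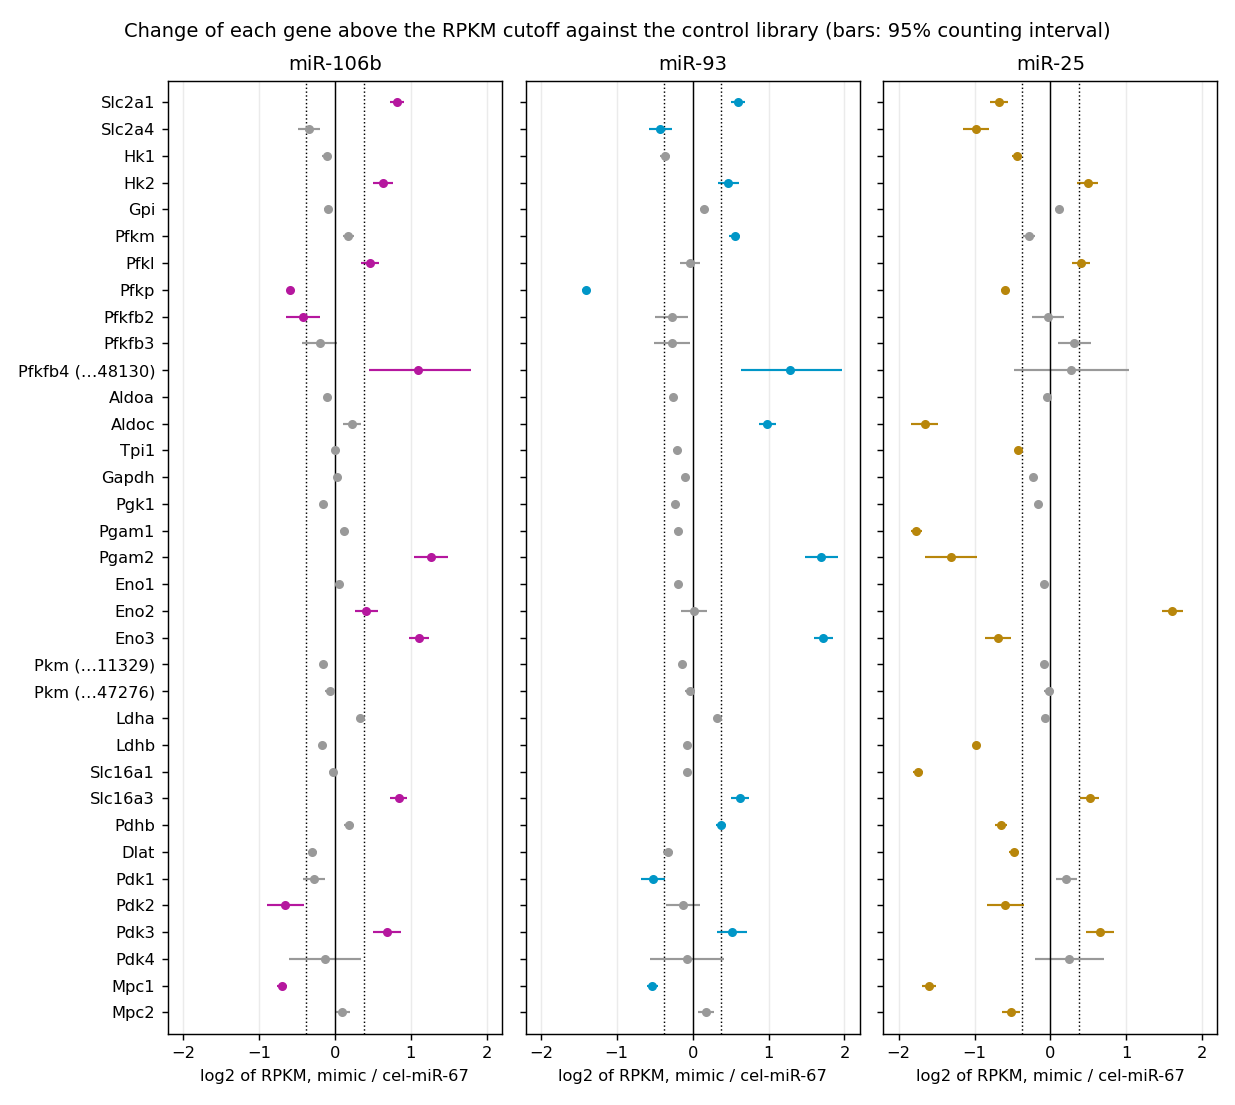
Log2 RPKM ratio over cel-miR-67 of each of the 35 genes above the cutoff, 1 panel per mimic, with bars for the 95% counting interval, the 1.3-fold cutoff dotted and called genes in colour. Pgam2 and Eno3 lie to the right with miR-106b and miR-93 and to the left with miR-25, while Pfkp and Mpc1 lie to the left in all 3 panels.

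At the entry of glucose the fetal transporter Slc2a1 moved in opposite directions with the mimics. Slc2a1 (ENSRNOG00000007284) encodes GLUT1, the widely expressed glucose transporter, and stood at 21.6 RPKM in the control, 38.2 after miR-106b, 32.8 after miR-93 and 13.5 after miR-25. It was the highest with miR-106b and fell below the control only with miR-25, with log2 ratios of 0.82 (interval 0.73 to 0.91), 0.60 (0.50 to 0.70) and -0.68 (-0.80 to -0.56). Slc2a4 (ENSRNOG00000017226) encodes GLUT4, the insulin-responsive transporter of muscle and fat. Its level was 13.0 RPKM in the control, 10.3 after miR-106b, 9.67 after miR-93 and 6.59 after miR-25, so that the control was the highest of the 4 libraries. The log2 ratio was -0.34 after miR-106b, which did not pass the cutoff, -0.42 (-0.58 to -0.27) after miR-93 and -0.98 (-1.15 to -0.81) after miR-25.

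Hexokinase traps glucose in the cell as glucose 6-phosphate. Hk2 (ENSRNOG00000006116), the form of insulin-sensitive muscle, was at 5.56 RPKM in the control and at 8.61, 7.70 and 7.80 after miR-106b, miR-93 and miR-25. All 3 mimic libraries were above the control, with log2 ratios of 0.63 (0.50 to 0.77), 0.47 (0.33 to 0.61) and 0.49 (0.35 to 0.63). Hk1 (ENSRNOG00000046891), the widely expressed form, was more abundant in every library, at 65.0 RPKM in the control, 60.3 after miR-106b, 50.5 after miR-93 and 47.7 after miR-25. Its log2 ratio of -0.45 (-0.51 to -0.38) after miR-25 passed the cutoff, and that of -0.36 after miR-93 lay just inside it.

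Phosphofructokinase catalyses the committed step, and its platelet-type subunit was the more abundant one in the control. Pfkp (ENSRNOG00000017163) was at 178.2 RPKM in the control, 118.7 after miR-106b, 67.3 after miR-93 and 117.2 after miR-25. The miR-93 library was the lowest and the other 2 mimic libraries lay near each other, with log2 ratios of -1.41 (-1.46 to -1.35) for miR-93, -0.59 (-0.63 to -0.54) for miR-106b and -0.60 (-0.65 to -0.56) for miR-25. Pfkm (ENSRNOG00000057988), the muscle subunit, was at 32.7 RPKM in the control, 37.0 after miR-106b, 48.0 after miR-93 and 26.8 after miR-25. It was called only with miR-93, as upregulated, with a log2 ratio of 0.56 (0.48 to 0.63). Pfkl (ENSRNOG00000001214), the liver subunit, was at 14.9 RPKM in the control and 14.6 after miR-93, but at 20.6 after miR-106b and 19.7 after miR-25. The log2 ratio was 0.46 (0.34 to 0.58) after miR-106b, -0.04 (-0.16 to 0.09) after miR-93 and 0.40 (0.28 to 0.52) after miR-25.

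The bifunctional Pfkfb enzymes make and remove the sugar bisphosphate that activates phosphofructokinase, and were all expressed at low levels. Both entries named Pfkfb4 had their highest values with miR-106b or miR-93. ENSRNOG00000048130 was at 1.04 RPKM in the control, 2.23 after miR-106b, 2.52 after miR-93 and 1.25 after miR-25, from 27, 76, 79 and 39 reads. Its log2 ratios were 1.10 (0.45 to 1.79) after miR-106b and 1.28 (0.63 to 1.97) after miR-93, and with miR-25 the interval from -0.48 to 1.03 around 0.27 included 0. Both calls were lost at the RPKM cutoff of 2.0 that the study's methods give, since the control level lay below it. The other entry, ENSRNOG00000020656, was below the cutoff in the control, at 0.802 RPKM, and at 1.93, 1.80 and 1.28 with the 3 mimics in the same order. Pfkfb2 (ENSRNOG00000004162), the heart form, was at 2.83 RPKM in the control, 2.11 after miR-106b, 2.33 after miR-93 and 2.77 after miR-25. It was downregulated only by miR-106b, with a log2 ratio of -0.42 (-0.64 to -0.20), and that call was lost with a pseudocount of 1 RPKM, at -0.299. Pfkfb3, the inducible form, ranged from 2.06 to 3.08 RPKM and was not called. The RPKM of Pfkfb1, the liver and muscle form, was between 0.425 and 0.815, below the cutoff in every library.

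In the middle of the pathway Aldoa, Gapdh, Pgk1 and Gpi stayed within the cutoff, Tpi1 passed it with miR-25 and the minor aldolase differed most. Aldoc (ENSRNOG00000011452), the brain-type aldolase, was at 14.6 RPKM in the control, 17.0 after miR-106b, 28.8 after miR-93 and 4.63 after miR-25. It was highest with miR-93, with a log2 ratio of 0.98 (0.87 to 1.10), and lowest with miR-25, with -1.65 (-1.83 to -1.48), and its log2 ratio of 0.22 after miR-106b did not pass the cutoff. Aldoa, the muscle aldolase, was at 408.5 to 487.8 RPKM and was called with none of the mimics. Tpi1 (ENSRNOG00000015290), which interconverts the triose phosphates, was at 264.9 RPKM in the control, 265.3 after miR-106b, 228.6 after miR-93 and 197.4 after miR-25. Only the miR-25 library passed the cutoff, with a log2 ratio of -0.42 (-0.47 to -0.38). Gapdh ranged from 891 to 1059.9 RPKM, Pgk1 from 148.4 to 174.0 and Gpi from 95.3 to 112.6, and none of these enzymes was called.

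At phosphoglycerate mutase the libraries lay far apart, with the muscle form upregulated by miR-106b and miR-93 and both forms downregulated by miR-25. Pgam2 (ENSRNOG00000013532), the muscle form, was at 11.1 RPKM in the control, 26.9 after miR-106b, 35.9 after miR-93 and 4.51 after miR-25, from 220, 696, 855 and 107 reads. The level was 2.41-fold that of the control with miR-106b and 3.23-fold with miR-93, and it fell by 59.5% after miR-25. The log2 ratios were 1.27 (1.05 to 1.495), 1.69 (1.47 to 1.91) and -1.31 (-1.65 to -0.97). Pgam1 (ENSRNOG00000050585), the widely expressed form, was at 155.5 RPKM in the control, 168.6 after miR-106b, 135.4 after miR-93 and 45.6 after miR-25. The miR-25 library stood apart from the other 3, with a log2 ratio of -1.77 (-1.84 to -1.70), and the other log2 ratios were 0.12 and -0.20.

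Among the enolases the muscle form followed the pattern of Pgam2 and the neuronal form did not. Eno3 (ENSRNOG00000004078), the muscle enolase, was at 20.5 RPKM in the control, 44.2 after miR-106b, 67.5 after miR-93 and 12.7 after miR-25, from 664, 1877, 2633 and 493 reads. The order of the libraries was that of Pgam2, with log2 ratios of 1.11 (0.98 to 1.24), 1.72 (1.60 to 1.84) and -0.69 (-0.87 to -0.52). Eno2 (ENSRNOG00000013141), the neuronal form, was at 10.5 RPKM in the control, 13.9 after miR-106b, 10.6 after miR-93 and 31.8 after miR-25. The miR-25 library was the highest, at 3.04-fold the control, with a log2 ratio of 1.60 (1.46 to 1.75), against 0.42 (0.26 to 0.57) after miR-106b and 0.02 (-0.15 to 0.19) after miR-93. Eno1, the widely expressed enolase, was at 422.8 to 500.4 RPKM and was not called.

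The start regions of Pgam2 and Eno3 are shown as those of the muscle forms that were called in opposite directions. The order of their levels across the 4 libraries was shared by Pfkm, Aldoc, Pdhb and Mpc2. They are printed from 250 bases before the annotated start to 10 bases after it, in the direction of the gene, from RefSeq on build GRCr8, with the letters CAGCTG, the E-box recognised by myogenic factors in muscle genes, in capitals. Pgam2 lies on the minus strand at chr14:84897865-84898124 and Eno3 on the plus strand at chr10:55868936-55869195.
Pgam2: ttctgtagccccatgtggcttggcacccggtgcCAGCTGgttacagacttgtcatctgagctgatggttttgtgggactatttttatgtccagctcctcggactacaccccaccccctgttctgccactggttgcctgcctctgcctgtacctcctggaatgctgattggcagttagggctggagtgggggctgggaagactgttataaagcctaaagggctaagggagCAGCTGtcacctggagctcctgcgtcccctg
Eno3: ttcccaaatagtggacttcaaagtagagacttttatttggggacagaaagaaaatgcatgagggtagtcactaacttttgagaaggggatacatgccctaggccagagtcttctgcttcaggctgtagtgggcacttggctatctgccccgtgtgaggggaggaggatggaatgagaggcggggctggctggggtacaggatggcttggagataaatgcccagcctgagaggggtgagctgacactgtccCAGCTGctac
CAGCTG, which reads the same on both strands, begins 217 and 21 bases before the start of Pgam2 and at the start of Eno3. In windows of 300 bases it was found in 6 of 38 promoters of the listed genes, those of Aldoa, Eno3, Gpi, Hk2, Mpc1 and Pgam2, or 15.8%, and in 15.1% of all 33469 promoters. It was not found in the windows of Pfkm, Aldoc, Pdhb and Mpc2, which had the same order of levels. The hypoxia-type core ACGTG or GCGTG, searched on both strands, was found in 24 of the 38, or 63.2%, against 41.6% of all promoters. TATAAA was found in 3 of the 38, those of Gapdh, Pgam2 and Slc2a1, or 7.89%, against 14.2%. The MEF2 motif was searched as exact YTAWWWWTAR, with Y for C or T, W for A or T and R for A or G. It was found in 1, that of Aldoa, or 2.63%, against 3.29%. Near matches were not counted, such as ctatttttat in the Pgam2 sequence above, which differs from the motif in its last letter. These motifs were chosen after their matches were seen, a promoter was matched for 34 of the 36 symbols, and a match is a description of letters and not of binding.

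Pyruvate kinase and lactate dehydrogenase A differed little, and the heart form of lactate dehydrogenase was lower with miR-25. The Pkm entry ENSRNOG00000011329 was at 189.7 to 211.3 RPKM and ENSRNOG00000047276 at 69.3 to 72.2 RPKM, and neither was called. Gene-level values do not separate the spliced forms of Pkm. Ldha, the form that favours lactate production, was at 504.3 RPKM in the control, 632.4 after miR-106b, 630.3 after miR-93 and 479.5 after miR-25. The log2 ratios of 0.33 (0.30 to 0.35) after miR-106b and 0.32 (0.29 to 0.35) after miR-93 lay inside the 1.3-fold cutoff. Ldhb (ENSRNOG00000013000), the heart form, was at 409.3 RPKM in the control, 365.4 after miR-106b, 388.8 after miR-93 and 206.7 after miR-25. Only miR-25 passed the cutoff, with a log2 ratio of -0.99 (-1.03 to -0.94).

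The monocarboxylate transporters, which move lactate and pyruvate across the cell membrane, changed in opposite directions with miR-25. Slc16a1 (ENSRNOG00000019996) encodes MCT1 and was at 120.1 RPKM in the control, 117.6 after miR-106b, 114.2 after miR-93 and 35.9 after miR-25. The first 3 libraries lay within a narrow range, with log2 ratios of -0.03 (-0.08 to 0.02) and -0.07 (-0.12 to -0.02) for miR-106b and miR-93, and it fell by 70.1% after miR-25, to a log2 ratio of -1.74 (-1.81 to -1.67). Slc16a3 (ENSRNOG00000036677) encodes MCT4, the exporter of glycolytic cells, and was at 18.0 RPKM in the control, 32.3 after miR-106b, 27.8 after miR-93 and 25.7 after miR-25. All 3 mimic libraries were above the control, with log2 ratios of 0.84 (0.73 to 0.96), 0.63 (0.51 to 0.75) and 0.51 (0.39 to 0.64). In the control MCT1 was the more abundant transporter by far, and with miR-25 the 2 levels lay closest to each other.

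At the mitochondrial membrane the carrier subunit Mpc1 was downregulated with every mimic. Mpc1 (ENSRNOG00000012415), which forms the pyruvate carrier with Mpc2, was at 173.8 RPKM in the control, 107.3 after miR-106b, 120.2 after miR-93 and 57.2 after miR-25. The control was the highest of the 4 libraries, and the log2 ratios were -0.70 (-0.77 to -0.62), -0.53 (-0.60 to -0.46) and -1.60 (-1.69 to -1.51). Mpc2 (ENSRNOG00000003150) was at 150.7 RPKM in the control, 161.5 after miR-106b, 169.8 after miR-93 and 105.4 after miR-25. It was called only with miR-25, with a log2 ratio of -0.52 (-0.63 to -0.40), so that both subunits of the carrier were downregulated there.

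Both listed subunits of the pyruvate dehydrogenase complex were downregulated with miR-25. Pdhb (ENSRNOG00000007895), the beta subunit of its first enzyme, was at 53.4 RPKM in the control, 60.7 after miR-106b, 69.4 after miR-93 and 34.1 after miR-25. The log2 ratio was 0.38 (0.31 to 0.45) after miR-93, just past the cutoff, and -0.65 (-0.73 to -0.57) after miR-25. With a pseudocount of 1 RPKM the value with miR-93 was 0.373, inside the cutoff, and the call was lost. Dlat (ENSRNOG00000009994), the acetyltransferase core, was at 76.8 RPKM in the control, 62.5 after miR-106b, 61.4 after miR-93 and 55.0 after miR-25. All 3 log2 ratios were below 0, at -0.30, -0.32 and -0.48 (-0.55 to -0.42), and only the last passed the cutoff.

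The pyruvate dehydrogenase kinases, which switch the complex off, had no common direction. Pdk3 (ENSRNOG00000012513) was at 4.83 RPKM in the control, 7.78 after miR-106b, 6.92 after miR-93 and 7.59 after miR-25, above the control with each mimic. Its log2 ratios were 0.69 (0.50 to 0.88), 0.52 (0.32 to 0.71) and 0.65 (0.46 to 0.84). Pdk2 (ENSRNOG00000004172) was at 22.8 RPKM in the control, 14.5 after miR-106b, 20.8 after miR-93 and 15.05 after miR-25. It was downregulated by miR-106b, with -0.65 (-0.89 to -0.41), and by miR-25, with -0.60 (-0.84 to -0.35), and was not called with miR-93. Pdk1 (ENSRNOG00000001517), a hypoxia-inducible kinase, was at 20.6 RPKM in the control, 17.1 after miR-106b, 14.3 after miR-93 and 23.8 after miR-25. It passed the cutoff only with miR-93, with a log2 ratio of -0.52 (-0.68 to -0.37). Pdk4, the kinase induced by fasting and fatty acids, was at 1.80 to 2.33 RPKM from 70 to 100 reads and was not called.

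Summing the listed isoforms of each step gives a level of mRNA for that reaction, in which abundant forms outweigh the others. Genes of the same reaction outside the list are left out. Phosphofructokinase was lower with every mimic, at 78.1% of the control for miR-106b, 57.5% for miR-93 and 72.5% for miR-25. Phosphoglycerate mutase was at 117.3% and 102.8% of the control with miR-106b and miR-93 but at 30.1% after miR-25, where lactate transport was at 44.6%, glucose uptake at 58.1% and lactate dehydrogenase at 75.1%. The summed glucose transporters, Slc2a1 and Slc2a4, stood at 140.1% after miR-106b and 122.7% after miR-93. Slc2a3, a glucose transporter outside the list, is not in that sum. It was at 8.33 RPKM in the control, 9.92 after miR-106b, 9.64 after miR-93 and 12.3 after miR-25. Its log2 ratio of 0.57 (0.44 to 0.69) after miR-25 passed the cutoff upwards, where the sum fell. Enolase stayed between 96.9% and 108.9% with all 3 mimics, and Eno1 made up most of its RPKM.

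**Figure D4:**
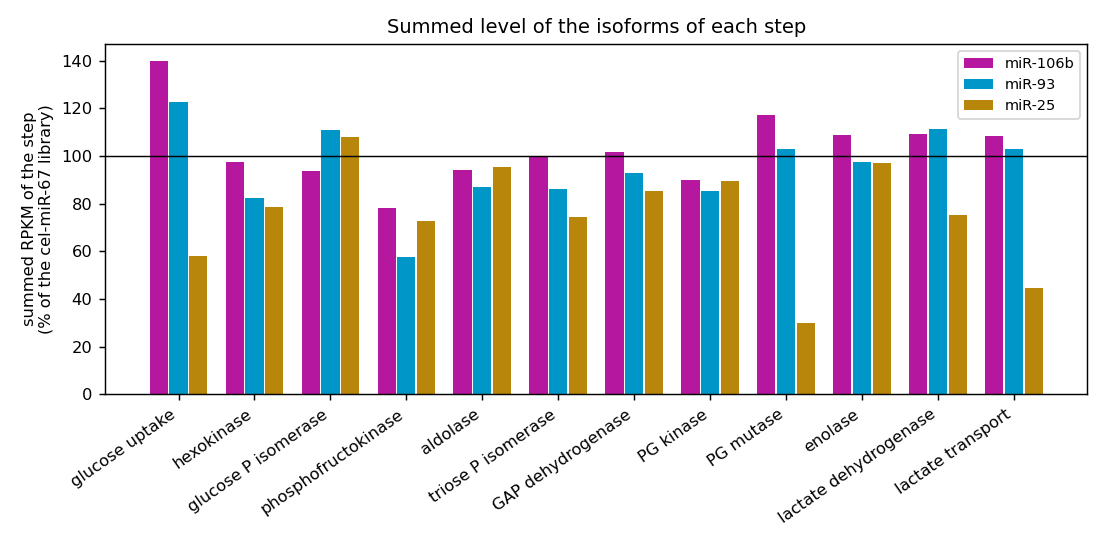
Summed RPKM of the listed isoforms of each of 12 steps, as a percent of the cel-miR-67 library (line at 100%), with 1 bar per mimic and library. The shortest bars are those of miR-25 for phosphoglycerate mutase at 30.1% and lactate transport at 44.6%.

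The balance of muscle or heart against fetal or widely expressed forms was followed in 8 isoform pairs, 2 of which share Pfkm, and it did not shift one way across the pathway. The shift is the difference from the control in the log2 ratio of the 2 forms, so a value above 0 is towards the muscle form, and it does not depend on library size. With miR-106b the shift was past 1.3-fold towards the muscle form in 4 pairs and towards the fetal form in 2, with miR-93 in 5 and 3, and with miR-25 in 3 and 3. These counts include Aldoa over the brain-type Aldoc, counted as fetal with miR-93, at -1.24, and as muscle with miR-25, at 1.61. All shifts are taken from the same single control library. No interval of these shifts included 0.

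Towards the muscle form with all 3 mimics went hexokinase, phosphoglycerate mutase and the pair of Pfkm and Pfkp, the last less than 1.3-fold with miR-25. Pgam2 made up 6.68% of the RPKM of its pair in the control, 13.7% after miR-106b, 21.0% after miR-93 and 9.0% after miR-25, with shifts of 1.15 (0.93 to 1.38), 1.89 (1.67 to 2.12) and 0.46 (0.11 to 0.81). With miR-25 both forms were downregulated, Pgam1 more than Pgam2. For Hk2 the share was 7.89% in the control and 12.5%, 13.2% and 14.1% with the mimics, with shifts of 0.74, 0.83 and 0.93. The share of Pfkm over Pfkp was 15.5% in the control and 23.8%, 41.6% and 18.6% with the mimics, with a shift of 1.96 (1.87 to 2.05) for miR-93. Eno3 went from 4.08% of its pair with Eno1 to 8.11% after miR-106b and 13.8% after miR-93, with shifts of 1.05 and 1.91, and to 2.72% after miR-25, with a shift of -0.60.

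Other pairs went towards the fetal form, or towards Aldoc, with at least 1 mimic. Slc2a4 made up 37.5% of its pair with Slc2a1 in the control, 21.2% after miR-106b, 22.8% after miR-93 and 32.8% after miR-25, with shifts of -1.16 (-1.33 to -0.98), -1.02 (-1.21 to -0.84) and -0.30 (-0.51 to -0.09). Ldhb made up 44.8% of its pair with Ldha in the control and 36.6%, 38.2% and 30.1% with the mimics, with shifts of -0.49, -0.40 and -0.91. Glucose uptake and lactate dehydrogenase were thus the pairs whose shifts were below 0 with all 3 mimics. Aldoa made up between 93.4% and 99.0% of its pair with Aldoc in every library, with shifts of -0.32, -1.24 and 1.61. Pfkm over Pfkl shifted by -0.28 after miR-106b, 0.59 after miR-93 and -0.69 after miR-25.

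**Figure D5:**
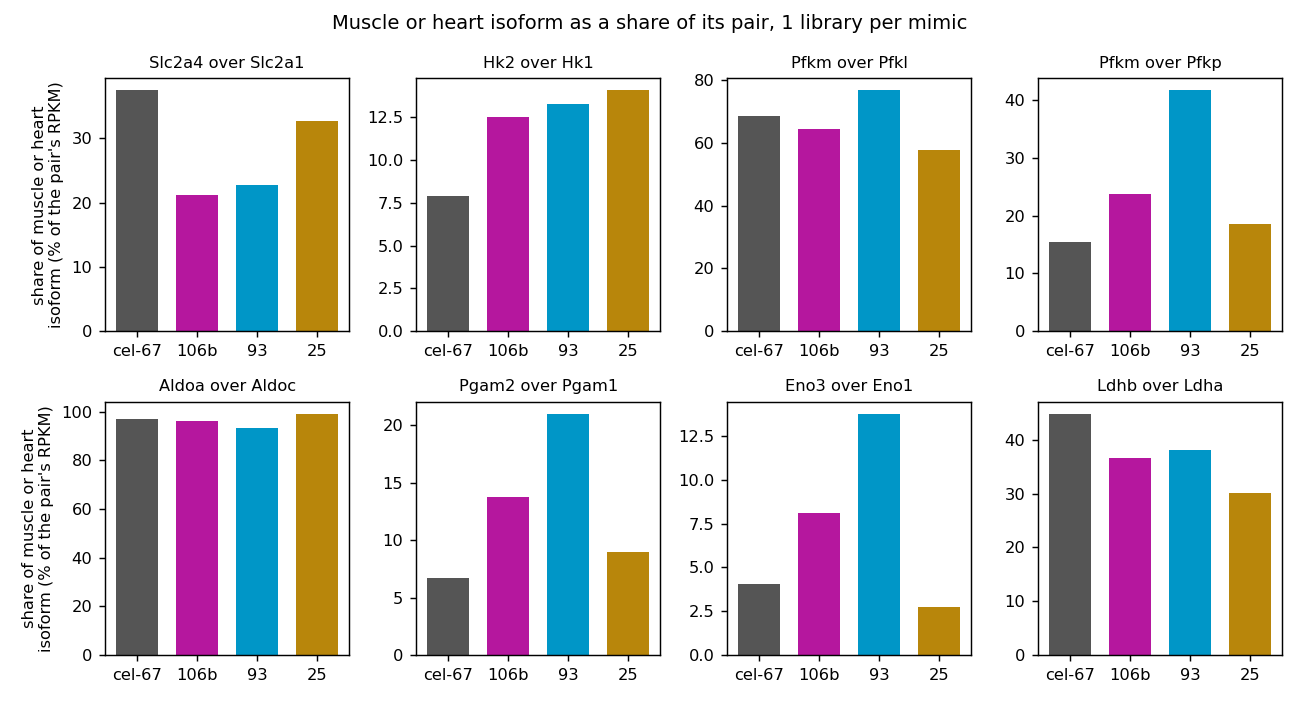
Share of the muscle or heart form in the summed RPKM of its pair, in percent, with 1 bar per library, each panel on its own axis from 0. Eno3 rose from 4.08% to 13.8% after miR-93 and was at 2.72% after miR-25, while the share of Slc2a4 was below its control value of 37.5% with all 3 mimics.

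Direct ratios between mimic libraries leave out the control. More of the listed genes were called between miR-25 and either other mimic than between those mimics, and the same held over all genes. Of 36 genes above the cutoff, 20 passed 1.3-fold between miR-25 and miR-106b, 4 higher and 16 lower with miR-25. This is 55.6%, where 45.1% of all genes passed. Between miR-25 and miR-93 it was 21 of 36, 5 higher and 16 lower, or 58.3%, where 45.0% of all genes passed. From miR-106b to miR-93, which share their seed, 7 of 36 passed, 4 higher and 3 lower with miR-93. This is 19.4%, where 15.5% of all genes passed. The genes higher with miR-93 than with miR-106b were Aldoc, with a log2 ratio of 0.76 (0.67 to 0.86), Eno3, with 0.61 (0.53 to 0.70), Pdk2, with 0.52 (0.29 to 0.76), and Pgam2, with 0.42 (0.27 to 0.57). Those lower with miR-93 were Pfkp, with -0.82 (-0.87 to -0.76), Pfkl, with -0.50 (-0.61 to -0.39), and Eno2, with -0.40 (-0.54 to -0.25). With miR-25 Eno2 was higher than with either other mimic, with log2 ratios of 1.19 (1.08 to 1.303) over miR-106b and 1.59 (1.46 to 1.72) over miR-93. Pdk1 also stood higher with miR-25, by 0.48 (0.35 to 0.62) over miR-106b and 0.73 (0.59 to 0.88) over miR-93. Slc16a1 and Pgam1 were lower with miR-25 than with miR-106b by log2 ratios of -1.71 and -1.89.

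Related genes outside the list were counted by the same cutoffs, beside which the shares called among all genes were 24.6%, 30.8% and 42.0% for the 3 mimics in the order miR-106b, miR-93, miR-25. Of 25 other genes of glycolysis, lactate and pyruvate handling, 20 were found and 14 were above the cutoff, and 1 was upregulated and 0 downregulated with miR-106b, 3 and 2 after miR-93, and 2 and 2 after miR-25, or 7.14%, 35.7% and 28.6%. Among them Pgm1, which links glycogen to glycolysis, had a log2 ratio of -0.65 after miR-93, and Dld, a subunit of pyruvate dehydrogenase, -0.65 after miR-25. Pdp1, the phosphatase that reactivates the same complex, had -0.70 after miR-25. Of 10 glycogen genes above the cutoff, miR-106b upregulated 0 and downregulated 1, miR-93 upregulated 1 and downregulated 2, and miR-25 upregulated 2 and downregulated 3, or 10.0%, 30.0% and 50%. With miR-25 Ugp2, which makes the glucose donor for glycogen, had a log2 ratio of -1.43, Gyg1, the glycogen primer, -0.68, and Pygl, the liver phosphorylase, 1.196. Ugp2 was also downregulated by miR-106b, with -0.44, and Gyg1 by miR-93, with -0.47. Of 6 pentose phosphate genes, miR-106b downregulated 1, miR-93 upregulated 1 and downregulated 2, and miR-25 upregulated 1, or 16.7%, 50% and 16.7%. Rpia, an isomerase of that pathway, had log2 ratios of -0.46 after miR-106b, -0.61 after miR-93 and 0.62 after miR-25, and Taldo1 had 0.60 after miR-93.

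Among hypoxia response genes and regulators outside glycolysis, Egln3 had the largest difference. Of 12 of them above the cutoff, miR-106b upregulated 0 and downregulated 2, miR-93 upregulated 1 and downregulated 4, and of 13 above it for miR-25 these counts were 1 and 5, or 16.7%, 41.7% and 46.2% in all. Egln3, an oxygen-sensing prolyl hydroxylase, was at 43.9 RPKM in the control, 20.9 after miR-106b, 15.05 after miR-93 and 48.5 after miR-25, with log2 ratios of -1.07, -1.54 and 0.14. Adm, a vasodilator peptide, and Myc were called only with miR-25, with log2 ratios of -1.40 and -1.07. Txnip, an inhibitor of glucose uptake, was downregulated with all 3 mimics, with -0.45 after miR-106b, -0.54 after miR-93 and -0.84 after miR-25. The upregulated genes of this list, named after their values were seen, were Hif1a, the oxygen-regulated transcription factor, with 0.62 (0.55 to 0.69) after miR-93, and Bnip3, a mitophagy receptor, with 0.43 (0.33 to 0.54) after miR-25. Bnip3 was downregulated by miR-93, with -0.53 (-0.65 to -0.41). Of 10 genes of fatty acid oxidation and PPAR targets, 1 was upregulated and 3 downregulated with each of miR-106b and miR-93, and 0 and 4 after miR-25, which is 40.0% for each mimic. Acadl, a dehydrogenase of fatty acid oxidation, was downregulated with all 3 mimics, with -0.55 after miR-106b, -0.96 after miR-93 and -0.53 after miR-25. Cpt1a, which admits fatty acids to mitochondria, was called only with miR-93, with 0.93. Cd36, a fatty acid transporter, was also downregulated with all 3, with -0.63 after miR-106b, -0.80 after miR-93 and -0.50 after miR-25. Fabp3, the heart fatty acid binding protein, was upregulated by miR-106b, with 0.49 (0.45 to 0.53), and downregulated by miR-25, with -0.71. Its log2 ratio of 0.04 after miR-93 did not pass the cutoff. The median log2 ratio for miR-25 was 0.02 over the other glycolysis genes, -0.07 for glycogen, 0.17 for the pentose phosphate pathway, -0.02 for the hypoxia list and -0.31 for fatty acid oxidation, where that of all genes was -0.012.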

How the data were processed

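RNA of 4 cardiomyocyte cultures, 1 per mimic, was measured by RNA-seq. According to the methods and the submitters' processing notes, the authors trimmed reads with Cutadapt, checked them with FASTQC, aligned them to Rnor 6.0 with STAR 2.7, rounded gene counts and computed the deposited RPKM values with edgeR. The counting program is not given in the sources used here, so reads shared with near-identical copies or overlapping genes may be split in either way.

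RPKM ratios over cel-miR-67 were formed without a pseudocount, with the RPKM cutoff of 1.0 and the fold cutoff of 1.3 of the study's results, whose methods give an RPKM cutoff of 2.0. The counts called over all genes were higher than those the paper reports, for each mimic and in both directions. The reason was not tested. Whole reads were recovered from the RPKM steps for 100% of 15731 genes, with a tolerance of 1e-06, and for 654 genes a common factor of the reads was restored from the gene length. The recovery was tested on simulated data. Intervals of 95% are Clopper-Pearson for ratios and exact conditional for isoform shifts. They cover counting error only. No p-value was computed, since each mimic had 1 library. Levels were compared between libraries as deposited, where TMM factors were between 0.998 and 1.001.

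All listed genes were accounted for, and those past 1.3-fold with at least 1 mimic were given in all libraries. From each related list at most 4 genes past 1.5-fold were named. Hif1a, Bnip3 and Slc2a3 were added after their values were seen. The genes, lists and tests were chosen with earlier results of these data known. Promoter and microRNA coordinates refer to GRCr8, not to the build of the alignment. Tables were read with pandas 2.3.3 under Python 3.11.15, statistics came from scipy 1.17.1 and numpy 2.4.6, and plots from matplotlib 3.10.9.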

Additional observations from a re-analysis of the deposited data

Results flagged for a closer look

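These genes passed the 1.3-fold cutoff in opposite directions with miR-25 and with another mimic. With 1 library each, the difference was not tested across cultures, and only the counting interval of the direct ratio is known. Over miR-106b, the log2 ratio of miR-25 was -1.50 (-1.60 to -1.40) for Slc2a1, -2.58 (-2.88 to -2.28) for Pgam2 and -1.80 (-1.95 to -1.66) for Eno3, which is 2.83-fold, 5.96-fold and 3.49-fold lower. Over miR-93, it was -1.28 (-1.39 to -1.17) for Slc2a1, -2.64 (-2.80 to -2.48) for Aldoc, -3.00 (-3.30 to -2.70) for Pgam2, -2.41 (-2.56 to -2.27) for Eno3 and -1.03 (-1.10 to -0.95) for Pdhb. Pgam2 was thus 7.97-fold and Aldoc 6.23-fold lower in the miR-25 library than in the miR-93 library. Beside these, all 12 cardiomyocyte markers were downregulated with miR-25, and their part in the differences was not tested. The call of Pdhb with miR-93 was lost with a pseudocount of 1 RPKM.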

How the results depend on the processing

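No paired analysis was possible because each mimic has 1 library and the labels give no replicate numbers. For the same reason no library could be left out. The alternatives were RPKM cutoffs of 2.0 and 0, a fold cutoff of 1.5 and pseudocounts of 0.1 and 1 RPKM. Others were centring on the median gene, TMM factors, calls whose interval excludes 0, and shares of reads in place of RPKM. Only centring and TMM factors could reverse the direction of a single gene, and only a pseudocount that of an isoform shift, and none did. Cutoffs and intervals only select genes. In an isoform shift the gene length cancels, so the share of reads repeats the main value. At 1.5-fold, 7 genes were called with miR-93 (6 upregulated, 1 downregulated) in place of 14, with miR-106b 10 (7 and 3) in place of 13, and with miR-25 14 (2 and 12) in place of 21, since the cutoff is stricter. The Pfkfb4 calls with miR-106b and miR-93 were lost at an RPKM cutoff of 2.0, and those of Pfkfb2 with miR-106b and Pdhb with miR-93 with a pseudocount of 1, at -0.299 and 0.373. The median log2 ratio was 0.0053 with miR-106b and -0.214 with miR-25 after centring, and -0.075 with miR-93 and -0.223 with miR-25 with TMM factors, each a move of under 0.1. The shift of Aldoa over Aldoc with miR-25 was 1.43 with a pseudocount of 1, where it was 1.61 without, and the log2 ratio of Aldoc alone was -1.47 against -1.65. Of the other values, 78 summary values and 419 values of single genes did not move beyond their limits. The 78 include the shares of reads, which could not move. Depth limits the Pfkfb4, Pfkfb1 and Pdk4 values, which rest on 100 reads or fewer in part of the libraries.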
